A study of Mus musculus with 20 samples.

Results

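Integrins are heterodimers of an alpha and a beta subunit that bind cells to the extracellular matrix. Inside the cell they are switched on by talins and kindlins, and they are coupled to actin in focal adhesions by adaptors such as vinculin and alpha-actinin, while the kinase FAK and the ILK complex signal from the same sites. Pluripotent cells attach largely through laminin and fibronectin receptors built on the beta 1 subunit, and the repertoire of subunits widens as cells differentiate. The 38 genes described here cover 13 integrin alpha subunits, 8 beta subunits, 15 cytoplasmic focal adhesion proteins and the caveolins Cav1 and Cav2. They were taken by symbol, and all 38 were found among the 55573 genes of the deposited table.

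RNA-seq libraries came from embryoid bodies (EBs), aggregates of pluripotent cells that differentiate once leukaemia inhibitory factor is withdrawn. Induced pluripotent stem cells (iPSCs) had been made from mouse embryonic fibroblasts, either wild type (WT) or lacking the NADPH oxidase Nox4 (Nox4-/-), with retroviruses carrying Oct4, Sox2, Klf4 and c-Myc, which every line therefore shared. There were 4 lines, WT#1-4, WT#20D-17, Nox4-/- #5-8 and Nox4-/- #5-23, and each was sampled once on days 0, 3, 5, 7 and 14, which gives 20 libraries. WT#20D-17 was taken as wild type from its sample labels alone. Each line is 1 clone, the iPSCs were kept on mitomycin-treated feeder fibroblasts, and EBs were formed in hanging drops and plated on gelatin, so that the line, not the day, is the independent unit for genotype. The labels give the last day as 14 in the sample titles and as 10 in the protocol text, and 14 is used here.

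Library totals lay between 20294968 and 27708023 counts. Levels are CPM, the share of a library's counts scaled to a common total with TMM factors, and the 3 counts taken as the floor correspond to 0.109 to 0.157 CPM, which covers counting error only. Nox4 had 3 to 22 counts in WT#1-4 and 56 to 203 in WT#20D-17, against 0 to 2 in Nox4-/- #5-8 and 0 in every library of Nox4-/- #5-23. The summed level of 8 pluripotency markers on day 0 was 2529 CPM in WT#20D-17, 152 CPM in WT#1-4, 138 CPM in Nox4-/- #5-8 and 175 CPM in Nox4-/- #5-23. Zfp42 and Dppa3 stayed at or under the floor in all libraries of the other 3 lines, while another of the 8, Fgf4, had medians of 142 CPM in WT#1-4 and of 143 and 174 CPM in the Nox4-/- lines against 7.63 CPM in WT#20D-17. Of the 8 markers, 7 were higher and 0 lower in WT#20D-17 than in WT#1-4 (edgeR's exact test, FDR under 0.01), with a median log2 ratio of 7.95. In Nox4-/- cells 7 were lower than in WT#20D-17 (median log2 ratio over the 8 of -9.26). The 1 that was higher was Fgf4 (log2 ratio 2.65), which thus went against the rest of the set. WT#20D-17 stood apart in all genes too. Its best correlation with a library of another line was between 0.803 and 0.842, and for the other 3 lines it was between 0.929 and 0.982. Comparisons of genotype with the days pooled are therefore given against each WT line separately. Other results on genotype take both WT lines together, namely the overlap of libraries, the order by day, the line sums and the interaction with day.

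Expression of the 38 members spanned a wide range. Compared per kilobase of exon, Itgb1, the beta 1 subunit, had the highest median over the 20 libraries, with 172 CPM per kb. Actn4 (alpha-actinin 4) followed with 69.7, Flna (filamin A) with 57.9, Itgb5 with 40.1 and Ilk with 35.9 CPM per kb. At the other end, Itgb6 had a median of 0.0491, Itga11 of 0.0193, Fermt1 (kindlin 1) of 0.0176 and Itgb8 of 0.0117 CPM per kb. Itgb1 had a median of 638 CPM in WT#1-4, 678 in WT#20D-17, 809 in Nox4-/- #5-8 and 853 in Nox4-/- #5-23. Lims1 stayed between 64.4 and 125 CPM in all libraries, and Tln1 (talin 1) ranged from 126 to 399 CPM. Itgb8 had a median of 3.19 CPM in WT#20D-17 and of 0 to 0.298 CPM in the other lines. Ranges of neighbours in this order overlapped between libraries, as for Actn4 and Flna, which lay between 48.5 and 118 and between 25.7 and 101 CPM per kb. In all, 30 members had over 3 counts in every library and all 38 had a mean of at least 10 counts. Exons of 13 members overlap another annotated gene, on the same strand for Itga1 and Itga10, and the share of reads that RSEM gave to each could not be checked.

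**Figure D1:**
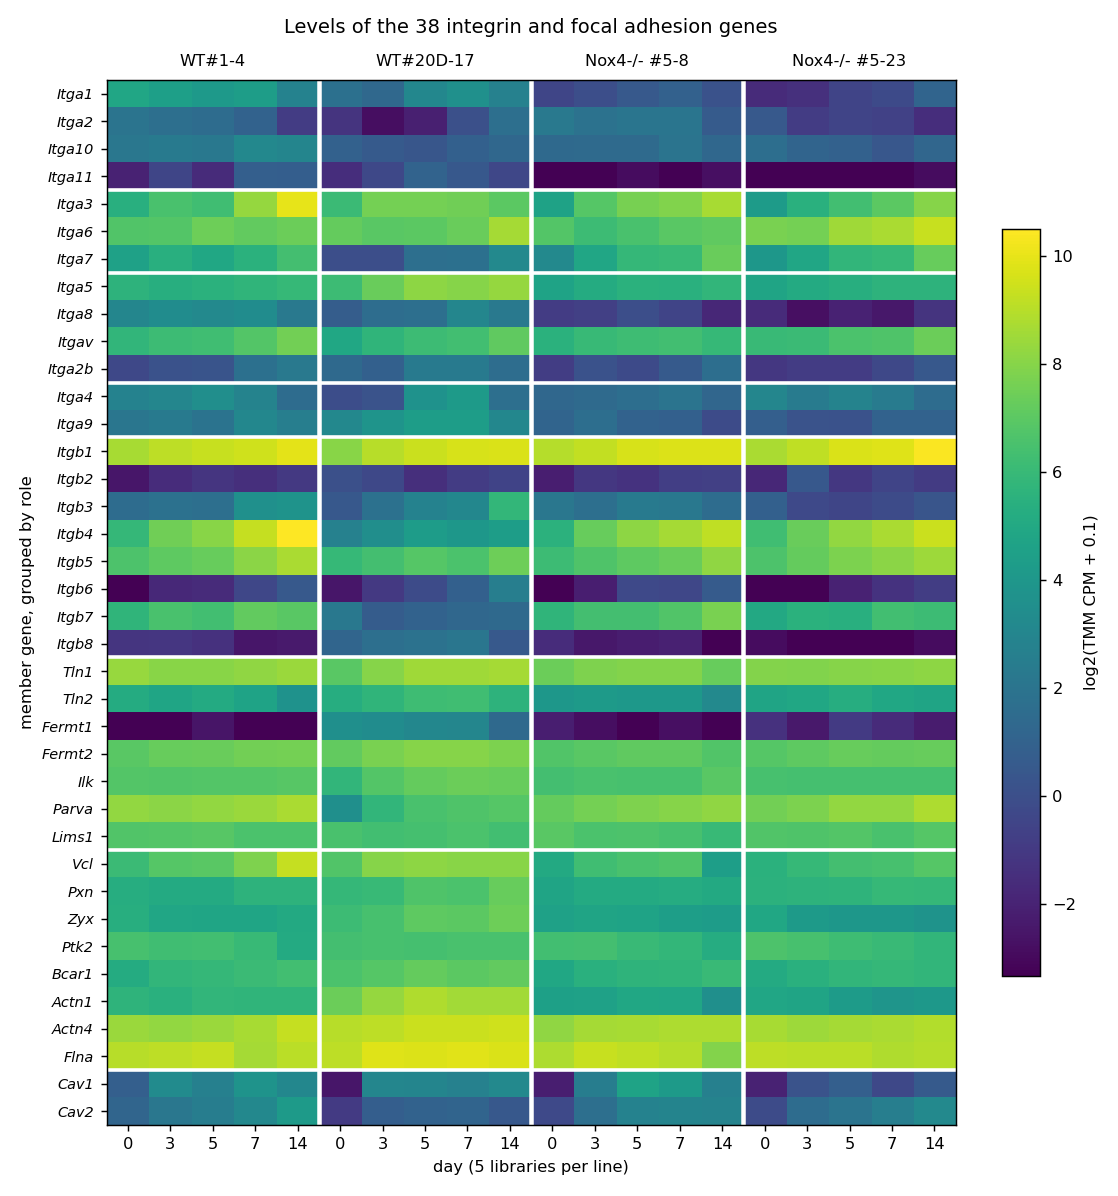
Colour gives log2(TMM CPM + 0.1) of the 38 members (rows, grouped by role) in 20 libraries (columns, by line and by day). The beta 1 subunit gene Itgb1 stays between 268 and 1349 CPM in all libraries, while Fermt1 is near 0 outside WT#20D-17 and Itgb7 and Itga7 are low in WT#20D-17.

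The first comparison asks which members differed between Nox4-/- cells and each WT line with the days pooled. Against WT#1-4, 7 of 38 members were lower in Nox4-/- cells and 0 were higher, with a median log2 ratio of -0.31 over the members and of 0.00 over all 33860 genes tested. By the same test, 3.97% of all genes were lower and 1.65% were higher. Those 7 were Itga1, Itga8, Itga11, Itga9, Itga10, Vcl and Actn1 (edgeR's exact test, FDR under 0.01). Without Nox4-/- #5-8, 9 were lower and 2, Itga6 and Fermt1, were higher, where 1221 of all genes were lower and 743 were higher. Against WT#20D-17, 18 members were lower and 4 were higher, where 16.0% of all genes were lower and 9.83% were higher, and the median log2 ratio was -0.66 over the members and -0.02 over all genes. The 10 Nox4-/- libraries are the same in both comparisons, so the comparisons share samples and do not check each other. Days of a line are not replicate cultures, and the p-values measure the spread between these libraries.

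The 6 members Itga1, Itga8, Itga11, Itga9, Vcl and Actn1 were lower in Nox4-/- cells against each WT line. In 5 of them, all but Vcl, the 10 Nox4-/- libraries lay below all 10 WT libraries, and no member lay above. Among the 16516 genes whose mean reached 10 counts, 1.58% had all Nox4-/- libraries below and 1.16% had them above all WT libraries.

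Itga1 encodes the alpha 1 subunit, which pairs with beta 1 in a collagen receptor (ENSMUSG00000042284, chr13:114953096-115101964 of GRCm38, minus strand). On days 0, 3, 5, 7 and 14 it was at 28.9, 22.0, 17.5, 20.9 and 6.94 CPM in WT#1-4 and at 3.28, 2.41, 8.33, 12.2 and 6.72 CPM in WT#20D-17. In Nox4-/- #5-8 the values were 0.639, 0.881, 1.34, 1.88 and 1.02 CPM, and in Nox4-/- #5-23 they were 0.223, 0.275, 0.605, 0.755 and 2.08 CPM. The genotypes did not overlap, and the WT lines lay far apart on day 0 and close together on day 14. The WT mean was 19.9-fold higher in WT#1-4 and 6.80-fold higher in WT#20D-17 than in Nox4-/- cells. The log2 ratios were -4.31 (SE 0.43, FDR of 7.58e-19) and -2.76 (SE 0.48, FDR of 2.23e-07).

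Itga11, the alpha 11 subunit of another collagen receptor typical of fibroblasts (ENSMUSG00000032243, chr9:62677826-62783982), was low everywhere. It was at 0.152, 0.636, 0.224, 1.74 and 1.64 CPM on the 5 days in WT#1-4 and at 0.246, 0.689, 2.01, 1.29 and 0.682 CPM in WT#20D-17. In the Nox4-/- lines it had 1 count on days 5 and 14 in #5-8, 1 count on day 14 in #5-23 and 0 counts in the other 7 libraries. All Nox4-/- libraries were thus under the floor of 3 counts per library, and the mean was at least 7.03-fold higher in WT#1-4 and at least 7.86-fold higher in WT#20D-17 (FDR of 1.12e-09 and 6.24e-14).

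The remaining collagen receptor genes went their own ways. Nox4-/- cells had less Itga10 than WT#1-4 (log2 ratio -1.31, SE 0.28, FDR of 0.000351) but had a log2 ratio of 0.51 against WT#20D-17 (FDR of 0.267). Its call against WT#1-4 was lost without day 7, without Nox4-/- #5-23 and when both WT lines were pooled. Itga2 passed against neither WT line.

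Itga8, the alpha 8 subunit of an RGD receptor for nephronectin and fibronectin (ENSMUSG00000026768, chr2:12106632-12301922, minus strand), had a mean 24.3-fold higher in WT#1-4 and 11.6-fold higher in WT#20D-17 than in Nox4-/- cells. It was at 8.09, 10.6, 8.88, 10.4 and 4.66 CPM in WT#1-4 and at 1.60, 2.97, 3.27, 7.90 and 4.67 CPM in WT#20D-17. The values were 0.439, 0.503, 0.918, 0.626 and 0.185 CPM in Nox4-/- #5-8 and 0.223, 0.0458, 0.151, 0.0888 and 0.328 CPM in Nox4-/- #5-23. The highest Nox4-/- library, at 24 counts, was below the lowest WT library, at 39 counts. Log2 ratios were -4.58 against WT#1-4 (SE 0.46, FDR of 1.97e-19) and -3.52 against WT#20D-17 (SE 0.52, FDR of 4.69e-10).

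Itga9, whose alpha 9 subunit binds tenascin C and other ligands (ENSMUSG00000039115, chr9:118606690-118901003), differed less. It was at 4.25, 4.89, 3.77, 8.19 and 5.999 CPM in WT#1-4 and at 8.81, 13.95, 20.7, 20.4 and 8.29 CPM in WT#20D-17. In Nox4-/- #5-8 it was at 2.12, 3.06, 1.95, 1.78 and 0.788 CPM, and in Nox4-/- #5-23 at 1.75, 1.05, 1.02, 1.95 and 1.93 CPM. Each WT line had its own level, and both lay above the Nox4-/- lines. The log2 ratios were -1.63 (SE 0.31, FDR of 2.51e-05) and -3.05 (SE 0.33, FDR of 2.66e-17), and the call against WT#1-4 was lost without day 7 (FDR of 0.0102). The related Itga4 passed against neither line, with log2 ratios of -0.75 and -0.77.

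Actn1, alpha-actinin 1, crosslinks actin at adhesions (ENSMUSG00000015143, chr12:80167547-80260371, minus strand). WT#1-4 held it at 50.4, 43.5, 53.8, 53.1 and 51.7 CPM, and WT#20D-17 at 165, 319, 461, 387 and 386 CPM. It was at 23.4, 24.0, 30.2, 28.9 and 11.7 CPM in Nox4-/- #5-8 and at 28.8, 26.9, 18.9, 14.6 and 16.7 CPM in Nox4-/- #5-23. WT#1-4 was flat over the days and lay closer to the Nox4-/- lines than to WT#20D-17. The log2 ratio was -1.17 against WT#1-4 (SE 0.20, FDR of 7.01e-06) and -3.94 against WT#20D-17 (SE 0.24, FDR of 1.02e-49), while the WT lines differed from each other by 2.77 (SE 0.26, FDR of 1.65e-18). Actn4, its paralogue, had a log2 ratio of -0.01 against WT#1-4 and was lower against WT#20D-17 (log2 ratio -0.62, FDR of 0.000633), a call lost in 5 of 15 alternatives.

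Vcl encodes vinculin, which links talin to actin (ENSMUSG00000021823, chr14:20929398-21033676). It was at 68.4, 115, 125, 229 and 613 CPM in WT#1-4 and at 109, 258, 284, 267 and 261 CPM in WT#20D-17. It was at 33.1, 77.9, 90.7, 103 and 21.0 CPM in Nox4-/- #5-8 and at 45.6, 62.3, 83.9, 89.5 and 116 CPM in Nox4-/- #5-23. On every day both Nox4-/- lines were below both WT lines, although the ranges over all days overlapped. That order held on all 5 days for Itga5, Zyx, Bcar1 and Fermt2 too, which passed against WT#20D-17 only. Both Nox4-/- lines were above both WT lines on 4 days for Itgb1, on 3 for Itga7 and on 1 each for Itgb2 and Itgb4. The share of all genes with either order was not counted. For Vcl the largest gap was on day 14, when WT#1-4 was at its highest and Nox4-/- #5-8 at its lowest. The log2 ratio was -1.67 against WT#1-4 (SE 0.45, FDR of 0.00205) and -1.71 against WT#20D-17 (SE 0.31, FDR of 1.3e-06). Against WT#1-4 the call was lost in 7 of 16 alternatives, with an FDR of up to 0.11. Among them were those without day 7, without day 14 and without either Nox4-/- line. The call was also lost with day as covariate in a quasi-likelihood test and with the median of the chromosome removed. Against WT#20D-17 it was kept in all 15 alternatives. Genes of chromosome 14, where Vcl and Fermt2 lie, had a median log2 ratio of -0.49 in Nox4-/- #5-8 and -0.46 in Nox4-/- #5-23 against WT#20D-17, and of 0.03 and 0.01 against WT#1-4. Itga1 and Vcl, and Itga3 below, stand in a focal adhesion list that the study chose on these samples. The direction of Itga1 and Vcl is therefore not independent evidence. Itga3 passed against neither WT line here, with log2 ratios of -1.01 against WT#1-4 and -0.02 against WT#20D-17.

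**Figure D2:**
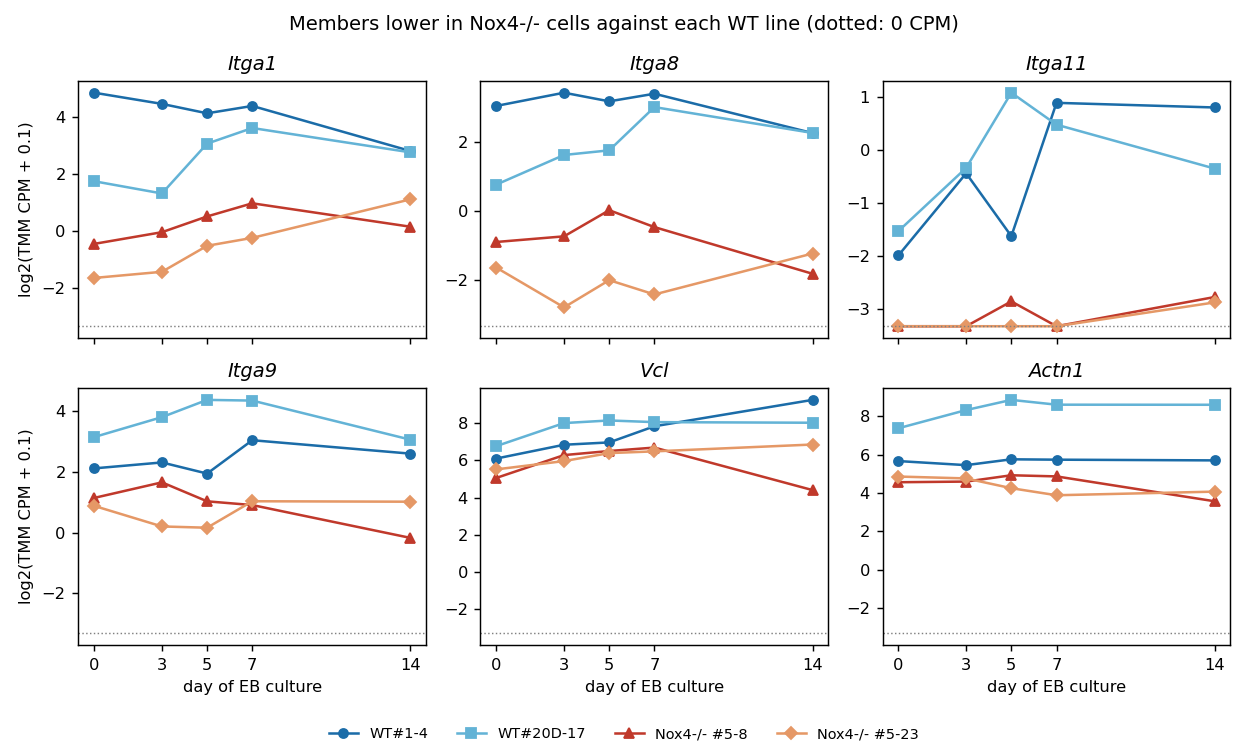
Points give log2(TMM CPM + 0.1) of 6 members on each day (x axis, in days) in the 4 lines, 1 library a point, with 0 CPM as a dotted line. For Itga1, Itga8, Itga11, Itga9 and Actn1 every Nox4-/- point lies below every WT point, and for Vcl this holds on each day but not across days, with Nox4-/- #5-8 at 21.0 CPM on day 14.

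Sequences before the start of some of these genes are shown because vinculin and the actin-linked genes below are classical targets of serum response factor (SRF), whose site is the CArG box. The windows are the 250 bases before the start in RefSeq on GRCm38.p6, 5′ to 3′ on the gene's strand, and 29 of 38 members had at least 1. Capitals mark CArG boxes and GGAATG, a motif of TEAD factors, on either strand. The windows of Actn1, Itga1 and Itga8 carry neither. The first line is Vcl (chr14:20929148-20929397, plus strand), then Fermt2, kindlin 2 (chr14:45530066-45530315, minus strand), Itgb6 (chr2:60673694-60673943, minus strand, 1 of its 2 windows, inside the annotated gene), Actn1 (chr12:80260364-80260613, minus strand), Itga1 (chr13:115101965-115102214, minus strand) and Itga8 (chr2:12301945-12302194, minus strand).
Vcl: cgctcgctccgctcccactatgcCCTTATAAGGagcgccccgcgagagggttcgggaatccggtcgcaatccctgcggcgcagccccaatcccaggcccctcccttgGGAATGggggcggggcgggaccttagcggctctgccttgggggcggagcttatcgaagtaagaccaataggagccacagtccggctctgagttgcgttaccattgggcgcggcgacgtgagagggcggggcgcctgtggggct
Fermt2: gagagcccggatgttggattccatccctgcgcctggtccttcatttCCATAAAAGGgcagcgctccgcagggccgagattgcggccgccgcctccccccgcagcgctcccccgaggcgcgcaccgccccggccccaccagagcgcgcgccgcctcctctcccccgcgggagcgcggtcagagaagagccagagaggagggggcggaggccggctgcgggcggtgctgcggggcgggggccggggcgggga
Itgb6: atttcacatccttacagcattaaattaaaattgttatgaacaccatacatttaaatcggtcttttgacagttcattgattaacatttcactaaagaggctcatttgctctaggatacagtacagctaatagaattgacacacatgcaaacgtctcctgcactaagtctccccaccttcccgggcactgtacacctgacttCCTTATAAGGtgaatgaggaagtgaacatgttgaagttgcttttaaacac
Actn1: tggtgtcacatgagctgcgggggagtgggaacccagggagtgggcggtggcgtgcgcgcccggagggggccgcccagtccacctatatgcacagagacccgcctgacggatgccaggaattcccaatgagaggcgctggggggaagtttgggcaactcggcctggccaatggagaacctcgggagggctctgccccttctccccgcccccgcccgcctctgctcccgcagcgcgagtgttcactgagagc
Itga1: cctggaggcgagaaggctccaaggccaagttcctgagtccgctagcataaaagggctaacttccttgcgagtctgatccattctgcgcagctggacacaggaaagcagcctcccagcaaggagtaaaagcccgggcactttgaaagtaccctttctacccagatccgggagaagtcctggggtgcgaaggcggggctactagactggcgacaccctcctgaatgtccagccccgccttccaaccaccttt
Itga8: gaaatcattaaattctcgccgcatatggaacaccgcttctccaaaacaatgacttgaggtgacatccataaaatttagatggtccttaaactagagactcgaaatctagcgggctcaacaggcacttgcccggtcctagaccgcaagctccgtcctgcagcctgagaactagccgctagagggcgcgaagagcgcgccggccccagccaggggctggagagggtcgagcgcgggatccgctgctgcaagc

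A CArG box stood in the windows of Vcl, Fermt2 and Itgb6, which is 3 of 36 member windows, and in 1.47% of the 32851 windows of all genes. GGAATG stood in 5 member windows, those of Vcl, Actn4, Flna, Itga10 and Itgb1, and in 12.6% of all windows. The AP-1 motif TGANTCA stood in 3, those of Actn4, Cav2 and Zyx, and in 6.75% of all. The GC box GGGCGG stood in 19 member windows and 32.7% of all, including Vcl, Fermt2 and Actn1. Each motif was searched on both strands. A match is a description of letters only, and the 3 genes with a CArG box did not behave alike. Vcl was lower against both WT lines and Fermt2 was lower against WT#20D-17 only (log2 ratio -0.71, SE 0.15, FDR of 0.000237). That call was lost in 4 of 15 alternatives, among them the one with the median of its chromosome removed, where the log2 ratio was -0.24 (FDR of 0.0722). Against WT#1-4, Fermt2 had a log2 ratio of -0.30 (FDR of 0.338). Itgb6 passed in neither comparison.

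For most adaptors the call depended on the WT line. Among the 8 signalling and actin-linking adaptors, 2 were lower against WT#1-4 and 7 were lower against WT#20D-17. Zyx (zyxin), a LIM protein that gathers at adhesions under tension, had log2 ratios of -0.58 (FDR of 0.0725) and -2.50 (FDR of 5.99e-26). Pxn (paxillin) had 0.09 (FDR of 1) and -1.13 (FDR of 2.31e-05), and Bcar1 (p130Cas), a scaffold phosphorylated at adhesions, had -0.28 (FDR of 0.645) and -1.38 (FDR of 1.63e-11). Pxn lies on chromosome 5, whose genes had a median log2 ratio of 0.57 in Nox4-/- #5-23 against WT#1-4 and 0.01 in Nox4-/- #5-8, and its call against WT#20D-17 was lost without Nox4-/- #5-8. Flna was lower only against WT#20D-17 (log2 ratio -0.72, FDR of 0.00229), and that call was lost in 6 of 15 alternatives. Ptk2, which encodes the focal adhesion kinase FAK, passed in neither comparison, with log2 ratios of 0.05 and -0.31.

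Of the talins, kindlins and ILK complex, 0 of 7 passed against WT#1-4. Against WT#20D-17, Tln2 (-1.34), Fermt1 (-5.85) and Fermt2 were lower and Parva, the ILK partner alpha-parvin, was higher (log2 ratio 1.77, FDR of 6.68e-05). The genes Tln1, Ilk and Lims1 (PINCH1) passed against neither. Their log2 ratios lay between -0.51 and 0.21 over both comparisons.

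Beta subunits gave no call against WT#1-4. Itgb1 had log2 ratios of 0.25 and 0.34 and passed against neither line. Against WT#20D-17, Itgb4 (4.39), the partner of alpha 6 in hemidesmosomes, and Itgb7 (4.96), a subunit known from lymphocytes, were higher, as was the laminin-binding Itga7 (4.20). Itgb8 (-5.35), which activates latent TGF-beta together with alpha V, and Itgb3 (-2.60) were lower, and so were Itga5 (-2.41), the fibronectin receptor subunit, and Itga2b (-1.78). The call of Itgb3 was lost in 5 of 15 alternatives, with a log2 ratio of -0.88 and an FDR of 0.317 without day 14, and also without Nox4-/- #5-23. That of Itga2b was lost in 3, without day 5, without day 7 and without Nox4-/- #5-23 (FDR of up to 0.0598). Itgb2, Itgb5, Itgb6, Itgav, Itga3, Itga6, Cav1 and Cav2 passed against neither line.

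**Figure D3:**
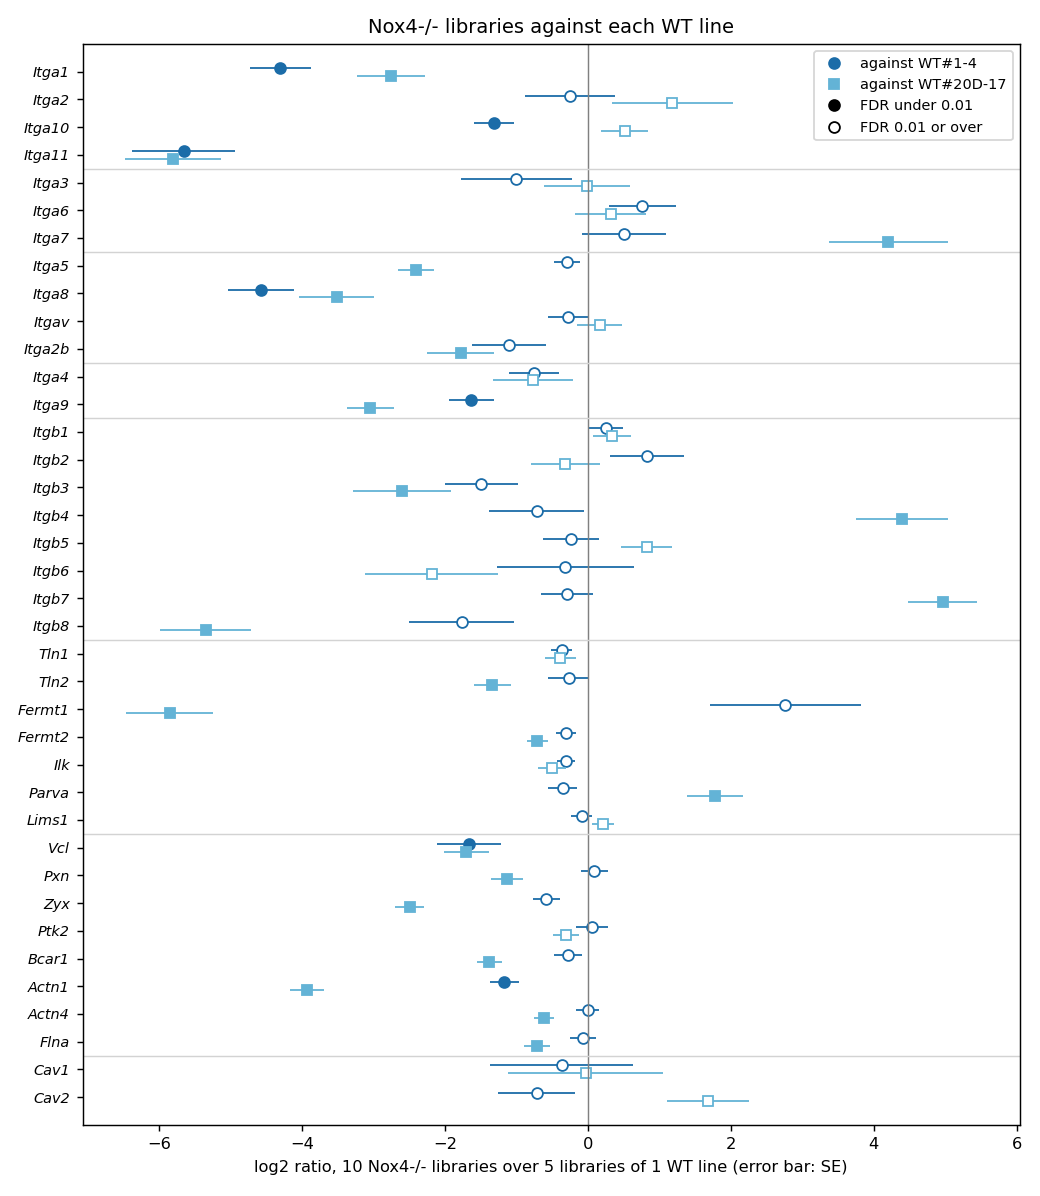
Each row is a member, with the log2 ratio of the 10 Nox4-/- libraries over the 5 libraries of WT#1-4 (circles) or of WT#20D-17 (squares), an error bar of 1 SE and a filled symbol where the FDR was under 0.01. Itga1, Itga8, Itga11, Itga9, Vcl and Actn1 are filled and left of 0 for both lines, while Itgb4, Itgb7 and Itga7 are filled and right of 0 for WT#20D-17 alone.

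With the line as the unit, counts were summed over the days and 2 WT lines were set against 2 Nox4-/- lines. None of the 38 members passed (edgeR's quasi-likelihood test), and 0.0% of 20229 genes did. At an unadjusted p under 0.05 there were 6 members, Itga11, Vcl, Itga1, Itga8, Itga9 and Actn1, each with an FDR of 0.63, and 1527 of the 20229 genes. DESeq2 called 4 members and 730 genes. The same 6 were lower in the pooled comparisons of these libraries, so the sums are not a separate check. The log2 ratios of these 6 lay between -6.01 for Itga11 and -1.54 for Vcl. An exact permutation of 2 lines against 2 could not give a p under 0.333.

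Lists of neighbouring genes in the adhesion pathway were fixed together with the members. Of 17 SRF and YAP target genes, 6 were lower against WT#1-4 and 14 against WT#20D-17, and none was higher in either, with median log2 ratios of -1.69 and -3.43. Tpm2 (tropomyosin 2) had log2 ratios of -3.61 (FDR of 6.4e-22) and -6.61. Actg2 was at -2.52, Tagln (transgelin) at -2.52 and Ccn2 at -2.45 against WT#1-4. Against WT#20D-17, Tagln (-5.91) and Ccn2 (-4.71) were lower too, but Actg2 did not pass (0.66, FDR of 0.772). Of 29 matrix ligands of integrins, 7 were lower and 1 was higher against WT#1-4, and 15 were lower and 3 were higher against WT#20D-17. Lama2 (-3.99), Col1a2 (-3.60), Col1a1 (-3.44) and Postn, periostin (-3.30), had the largest ratios against WT#1-4. Against WT#20D-17, Col1a2 (-7.96), Col1a1 (-7.17) and Postn (-7.55) were lower too, but Lama2 did not pass (0.33, FDR of 0.879). Among 49 other adhesome proteins, 5 were lower and 2 were higher against WT#1-4, led by Nedd9 (4.81), a relative of Bcar1, Sorbs3 (-2.16), Tns2 (-1.82) and Actn3 (-1.66). Against WT#20D-17, 21 were lower and 8 were higher. Sorbs3 (-3.43), Tns2 (-2.82) and Actn3 (-4.31) were among the lower ones there, but Nedd9 did not pass (-0.75, FDR of 0.0893). Of 5 further genes tested, other integrin subunits and the integrin beta-like gene Itgbl1, only Itgbl1 passed against WT#1-4 (-3.82), and 0 passed against WT#20D-17.

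Markers of other cell types differed too, but not every list went one way. Of 12 fibroblast markers, 6 were lower in Nox4-/- cells against WT#1-4, and 6 were lower and 1 higher against WT#20D-17. Of 9 smooth and cardiac muscle markers, 5 were lower against WT#1-4, and 7 were lower and 1 higher against WT#20D-17. Of 10 epithelial markers, 4 and 7 were lower. Of 10 endoderm markers, 0 passed against WT#1-4 and all 10 were lower against WT#20D-17 (median log2 ratio -9.90). Of 7 endothelial markers, 2 were lower against WT#1-4, and 3 were lower and 3 higher against WT#20D-17. Of 8 leukocyte markers, 1 was lower and 1 higher against WT#1-4, and 2 were lower and 1 higher against WT#20D-17. Of 6 megakaryocyte and platelet markers tested, 1 was lower against WT#1-4, and 3 were lower and 1 higher against WT#20D-17. Some of these stand in the lists above too, such as Col1a1 and Acta2. The summed fibroblast level was 187 to 347 CPM in WT#1-4, 31.0 to 3083 CPM in WT#20D-17, 67.7 to 452 CPM in Nox4-/- #5-8 and 64.5 to 147 CPM in Nox4-/- #5-23. The summed muscle level was 458 to 1057, 55.1 to 1165, 20.8 to 195 and 9.78 to 89.5 CPM in the same order, with Actc1 and Myh6 at or under the floor in both Nox4-/- lines. On day 0, when the cells came from culture on feeder fibroblasts, the fibroblast sum was 187 CPM in WT#1-4 and 31.0 CPM in WT#20D-17, against 67.7 and 64.5 CPM in the Nox4-/- lines. The summed endoderm level was 944 to 3548 CPM in WT#20D-17, 39.6 to 132 CPM in WT#1-4, 20.4 to 46.6 CPM in Nox4-/- #5-8 and 55.0 to 87.2 CPM in Nox4-/- #5-23, with Sox17, Foxa2, Afp, Ttr and Apoa1 at or under the floor in both Nox4-/- lines. Itga1, Itga8, Itga11 and Itga9 were lower in both Nox4-/- lines than in both WT lines on day 0 already. So were, among others, Itga5, Vcl, Zyx, Bcar1, Actn1 and Fermt2, and the share of all genes was not counted. Itga11 was close to the floor on that day, at 0.152 CPM in WT#1-4 and 0.246 CPM in WT#20D-17. The part of cell composition in the results was not tested, and in bulk libraries fewer cells of a type cannot be told apart from less RNA per cell.

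The WT lines differed from each other in 15 members, 9 higher and 6 lower in WT#20D-17 than in WT#1-4. Of all genes, 10.1% were higher and 7.64% lower. The largest ratio belonged to Fermt1, kindlin 1 of epithelia, with 49 to 281 counts in WT#20D-17 and 0 to 2 counts in WT#1-4. Itgb8 (3.58), Actn1 (2.77), Itga5 (2.12), Zyx (1.91), Itga9 (1.41), Pxn (1.22), Bcar1 (1.10) and Tln2 (1.07) were higher as well, although Itga9 and Tln2 lost their call in 4 of 9 alternatives, without day 3, day 5 or day 7 and with the quasi-likelihood test. Itgb7 (-5.26), Itgb4 (-5.11), Itga7 (-3.69), Cav2 (-2.40), Parva (-2.12) and Itga10 (-1.82) were lower. Itgb7 was at 4.51, 1.55, 1.92, 2.35 and 2.57 CPM on the 5 days in WT#20D-17, while the lowest library of the other 3 lines was at 31.9 CPM. Parva rose from 11.8 to 118 CPM in WT#20D-17, and its lowest library elsewhere was at 152 CPM.

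The Nox4-/- lines differed in 4 members, where 1.05% of all genes were higher and 1.14% lower in #5-23. Itga6, the alpha 6 subunit of laminin receptors, was at 207, 197, 372, 426 and 652 CPM in #5-23 and at 109.9, 69.9, 94.0, 126 and 141 CPM in #5-8. The lines did not overlap (log2 ratio 1.78, SE 0.32, FDR of 4.39e-05). Itga2, the alpha 2 subunit of a collagen receptor, was lower in #5-23 (log2 ratio -2.46, SE 0.47, FDR of 0.000145), with 0.255 to 1.34 CPM against 1.44 to 4.63 CPM. Itgb3, the beta 3 subunit, was lower too (-1.94, SE 0.37, FDR of 0.000136), and Tln2 was higher (0.99, SE 0.21, FDR of 0.00373). Without day 5 or without day 7, Itga6 was the only member that passed.

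**Figure D4:**
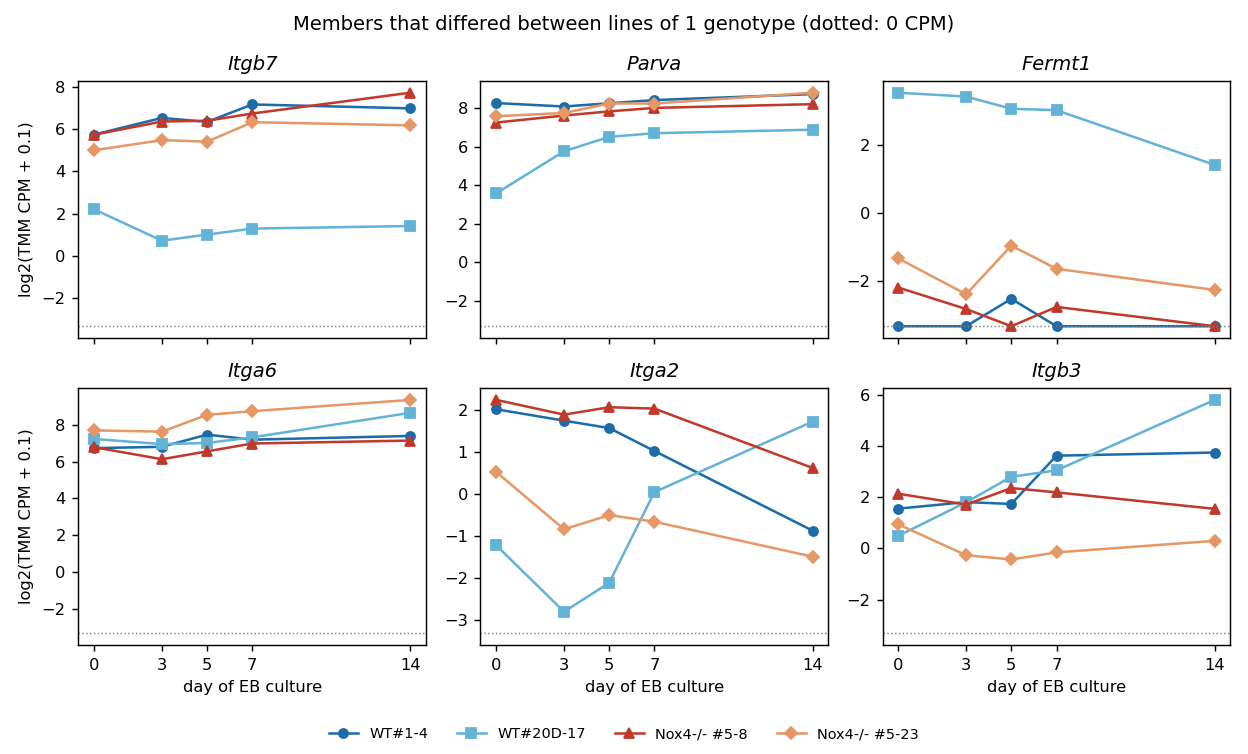
Points give log2(TMM CPM + 0.1) of 6 members on each day (x axis, in days) in the 4 lines, 1 library a point, with 0 CPM as a dotted line. Itgb7 and Parva are low and Fermt1 is high in WT#20D-17 on all days, Itga6 is highest in Nox4-/- #5-23, and Itgb3 reaches 56.1 CPM in WT#20D-17 on day 14.

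The next comparison asks how the members changed from day 0 to day 14, with the 4 lines as replicates and the line as a block. Between these days 15 members rose and 1 fell, with a median log2 ratio of 0.78 over the members and of 0.05 over all genes tested. Of 19263 genes, 13.6% rose and 12.8% fell (edgeR's quasi-likelihood test). Over any of the 5 days, 12 members passed, all higher on day 14, where 15.9% of all genes passed. The laminin-binding alpha subunits (3 of 3), the caveolins (2 of 2), 3 of 4 RGD-binding alpha subunits and 4 of 8 beta subunits rose, while 0 of 4 collagen-binding alpha subunits passed.

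Itgb6, whose beta 6 subunit pairs with alpha V in epithelia, rose most (log2 ratio 6.44, SE 0.71, FDR of 6.06e-06). From day 0 to day 14 it went over 0, 0.199, 0.224, 0.683 and 1.34 CPM in WT#1-4 and over 0.0820, 0.388, 0.785, 1.82 and 5.88 CPM in WT#20D-17. The values were 0, 0.126, 0.726, 0.674 and 1.44 CPM in Nox4-/- #5-8 and 0, 0, 0.151, 0.311 and 0.474 CPM in Nox4-/- #5-23. Every line started at 0 to 2 counts, so the fitted ratio depends on how 0 is treated, and the day 14 level was at least 11.7-fold higher in WT#1-4, at least 12.0-fold in #5-8 and at least 4.25-fold in #5-23. The course was upward in all 4 lines.

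The receptor for laminin built from alpha 6 and beta 4 anchors hemidesmosomes. Its beta subunit gene, Itgb4 (ENSMUSG00000020758, chr11:115974709-116008412), was at 59.5, 184, 262, 616 and 1447 CPM in WT#1-4 and at 6.72, 11.3, 19.9, 15.6 and 20.7 CPM in WT#20D-17. It was at 46.9, 156, 285, 402 and 580.3 CPM in Nox4-/- #5-8 and at 77.3, 160.1, 309.6, 425 and 675 CPM in Nox4-/- #5-23. All lines rose, but WT#20D-17 stayed below every library of the other lines (log2 ratio 3.31, SE 0.36, FDR of 5.78e-06). Itga6 rose by less, 1.05 (SE 0.23, FDR of 0.00207).

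Itga3, the alpha 3 subunit that binds laminin with beta 1 (ENSMUSG00000001507, chr11:95044474-95076801, minus strand), was at 42.7, 93.7, 76.6, 322 and 998 CPM in WT#1-4. In WT#20D-17 it was highest on day 3, with 69.4, 197, 193, 184 and 129 CPM. The Nox4-/- lines went over 25.0, 113, 203, 239 and 417 CPM in #5-8 and over 19.3, 43.7, 79.3, 127 and 258 CPM in #5-23. The rise from day 0 to day 14 was thus 23.4-fold in WT#1-4, 16.7-fold in #5-8, 13.4-fold in #5-23 and 1.85-fold in WT#20D-17 (log2 ratio 3.57, SE 0.53, FDR of 7.51e-05).

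Itga7, the alpha 7 subunit known from muscle (ENSMUSG00000025348, chr10:128933818-128958282), was at 23.9, 41.9, 29.9, 45.2 and 83.7 CPM in WT#1-4 and at 0.902, 0.904, 3.27, 3.28 and 9.03 CPM in WT#20D-17. It was at 8.86, 28.6, 58.8, 64.4 and 164 CPM in Nox4-/- #5-8 and at 15.6, 28.7, 53.8, 60.2 and 156 CPM in Nox4-/- #5-23. On day 14 both Nox4-/- lines lay above both WT lines. The log2 ratio over the days was 3.12 (SE 0.35, FDR of 7.71e-06).

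Cav1, caveolin 1, coats caveolae and associates with integrins (ENSMUSG00000007655, chr6:17306335-17341452). It was at 1.71, 10.1, 6.34, 13.4 and 8.23 CPM in WT#1-4 and at 0.0820, 7.97, 7.63, 6.66 and 9.13 CPM in WT#20D-17. It was at 0.120, 5.75, 26.04, 18.3 and 6.31 CPM in Nox4-/- #5-8 and at 0.149, 1.05, 1.74, 0.710 and 1.39 CPM in Nox4-/- #5-23. The step came between day 0 and day 3 in every line, and the highest level on day 5 in both Nox4-/- lines. On day 0 it had 2 counts in WT#20D-17 and 3 in #5-8, at or under the floor, so the fitted ratio depends on how such low counts are treated. The rise to day 14 had a fitted log2 ratio of 3.81 (SE 0.75, FDR of 0.000761), and for Cav2 of 2.98 (SE 0.39, FDR of 2.77e-05).

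Among the other members, Itgb5 (1.90), Itga2b (1.95), Itgav (1.48), Itgb1 (1.32), Parva (1.27), Itga6, Itga5 (1.03), Bcar1 (0.87) and Actn4 (0.55) rose. Itgb1 and Itgb5 kept their call in all 10 alternatives, while Actn4 lost it in 7, Parva in 5 (FDR of up to 0.366), Itga2b in 4 and Itga5 in 3. Without either Nox4-/- line Parva, Itga2b and Itga5 did not pass, and Parva did not pass without the day 14 library of Nox4-/- #5-8. The other 22 members did not pass. Vcl had a log2 ratio of 1.68 (SE 0.48) and an FDR of 0.0104, just over the threshold. Without the day 14 library of Nox4-/- #5-8, 17 members rose and 0 fell, where 5171 of 20541 genes passed in either direction.

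Ptk2, the gene of FAK (ENSMUSG00000022607, chr15:73205102-73423280, minus strand), was the member that passed as lower over the 4 lines (log2 ratio -0.74, SE 0.20, FDR of 0.00709). It went over 87.5, 77.3, 79.3, 62.5 and 34.6 CPM in WT#1-4, 80.0, 83.7, 66.6, 57.7 and 37.1 CPM in Nox4-/- #5-8 and 98.3, 89.4, 74.8, 65.8 and 55.3 CPM in Nox4-/- #5-23. In WT#20D-17 it was at 81.5, 88.3, 84.6, 93.5 and 92.8 CPM. The fall was seen in 3 of 4 lines, and the call was lost without WT#1-4, without either Nox4-/- line and without the day 14 library of #5-8.

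**Figure D5:**
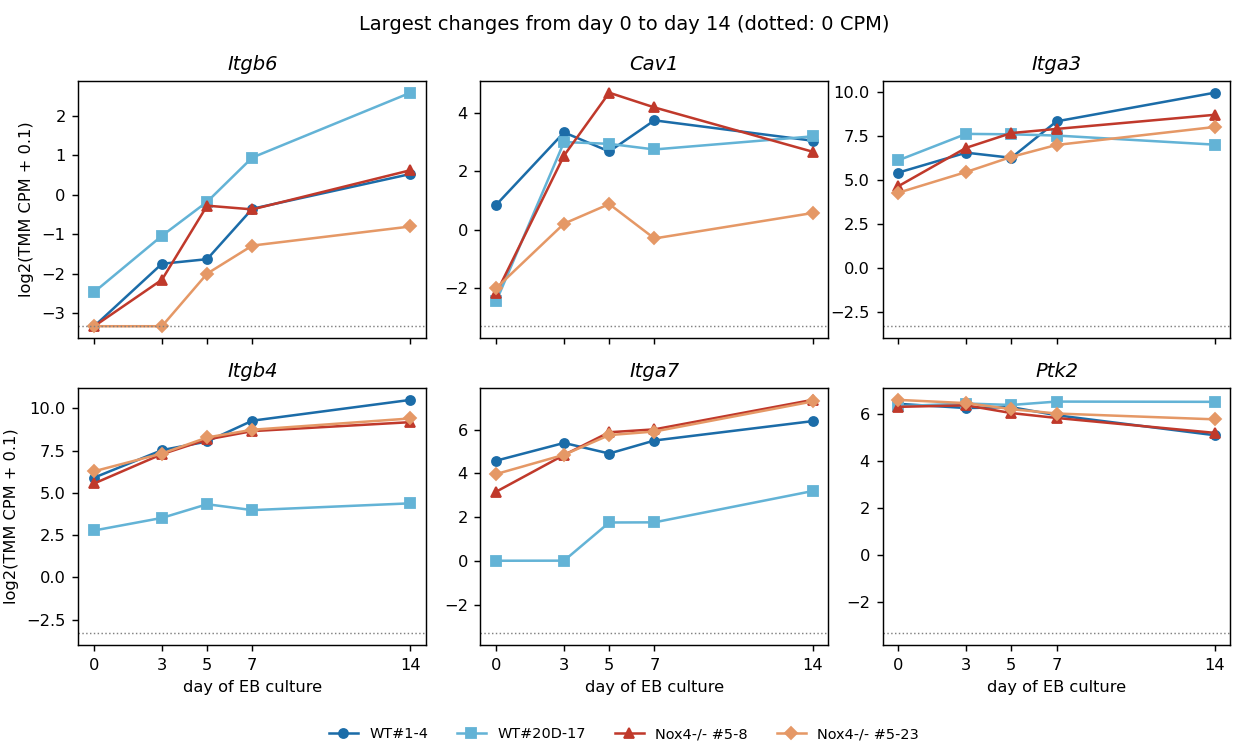
Points give log2(TMM CPM + 0.1) by day (x axis, in days) in the 4 lines, 1 library a point, with 0 CPM as a dotted line. The members are the 5 largest rises and the 1 fall with an FDR under 0.01. Itgb4 reaches 1447 CPM in WT#1-4 on day 14 and 20.7 CPM in WT#20D-17, and Ptk2 falls in all lines but WT#20D-17.

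The same comparison over the lists gave 11 of 17 SRF and YAP target genes higher on day 14 and none lower, led by Ccn2 (4.53), Ccn1 (4.41), Acta1 (4.16) and Cnn2 (3.80). Of the 29 matrix ligands, 8 rose and 1 fell. Among them Lamb3 (5.33), a laminin beta chain, and Thbs1 (3.57), thrombospondin 1, rose, and Spp1, osteopontin, fell (-3.29). Of 48 other adhesome proteins tested, 15 rose and 2 fell, with Lims2 (3.78), Parvb (3.51), Sorbs3 (2.90) and Tns2 (2.49) at the top. Epithelial markers rose in 8 of 10 cases, from a sum of 30.1 to 55.3 CPM on day 0 to 456 to 1550 CPM on day 14 in the 3 lines other than WT#20D-17, which went from 1138 to 3247 CPM. Their part in the rise of the laminin receptors was not tested.

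Finally, the courses of the genotypes over the days were compared by the interaction of genotype and day. No member passed (edgeR's quasi-likelihood test over 4 degrees of freedom), and 2 of 19263 genes did, which is 0.0104%. At an unadjusted p under 0.05 there were 1 member and 1378 of the 19263 genes, and DESeq2 called 0 members and 191 genes. The lowest FDR among the members was that of Itgb3, 0.512. Itgb3 was at 2.85, 3.42, 3.24, 12.3 and 13.4 CPM in WT#1-4 and at 1.31, 3.40, 6.89, 8.21 and 56.1 CPM in WT#20D-17. It was at 4.31, 3.19, 5.05, 4.48 and 2.83 CPM in Nox4-/- #5-8 and at 1.82, 0.733, 0.643, 0.799 and 1.13 CPM in Nox4-/- #5-23. Both WT lines ended higher than they began and both Nox4-/- lines lower. From day 0 to day 14 the fitted change was 3.92 (SE 0.74) in WT cells and -0.66 (SE 0.67) in Nox4-/- cells.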

How the data were processed

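The authors trimmed paired-end reads of stranded mRNA libraries with fastx_toolkit, mapped them with STAR 2.6.0c and deposited gene-level expected counts from RSEM 1.3.1, not normalized, for Ensembl genes of GRCm38. Whether RSEM used the strand is not given in the sources used here. For this report the estimated counts were rounded to whole numbers and scaled with TMM factors. Symbols and coordinates came from GENCODE M21, in which 55480 of 55573 identifiers were found, and promoter windows from a RefSeq table of GRCm38.p6.

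Genotypes and lines were compared with edgeR's exact test on the 33860 genes not at 0 throughout the 20 libraries, days pooled, as in the study's methods. Calls used an FDR under 0.01, and the stricter 0.001 that those methods name was an alternative. Changes over days and the interaction used edgeR's quasi-likelihood test with the line as a block, after edgeR's expression filter, and so did the line sums. FDR is Benjamini-Hochberg adjusted over all genes tested. SEs come from quasi-likelihood fits of the same libraries. The line pairs the libraries of different days: differences between the WT lines correlated over days at a mean r of 0.791 and those between the Nox4-/- lines at 0.543, over 16516 genes. Fits were run in R 4.3.3 with edgeR 4.0.16. DESeq2 1.42.0 and limma 3.58.1 served for alternatives, and the fits were tested on simulated data. Single-library counts have 95% Wilson intervals, which cover counting error only, and at these totals they are narrow for all but the members near the floor.

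The members, lists and tests were chosen with earlier results of these data known. Values in every library are given for members past the FDR in the same direction against each WT line, members without overlap between genotypes, and the 5 largest rises and the falls over the days. At most 4 genes a pathway list are named. Itgb3, Itga6, Itgb7 and Parva were given values outside this rule, after their values were seen.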

Additional observations from a re-analysis of the deposited data

Results flagged for a closer look

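In 4 members both WT lines changed one way from day 0 to day 14 and both Nox4-/- lines the other way, by log2(CPM + 0.1) in each line. The interaction term of day 14 gives the Nox4-/- change minus the WT change on the log2 scale. It was -4.58 (SE 0.99) for Itgb3, -1.43 (SE 0.53) for Actn1, -0.88 (SE 0.67) for Itga10 and -0.75 (SE 0.44) for Flna. In the same order the FDRs were 0.512, 0.82, 1 and 0.995. They belong to the joint test of all days (edgeR's quasi-likelihood test over 4 degrees of freedom), which no member passed. The term of day 14 was not tested on its own. The changes per line were 2.19, 5.32, -0.59 and -0.64 for Itgb3 in WT#1-4, WT#20D-17, Nox4-/- #5-8 and Nox4-/- #5-23. In WT#1-4 the changes of Actn1 (0.04) and Flna (0.04) were close to 0. The libraries of 1 line and day have no replicate, so single extreme libraries could not be screened within a group.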

How the results depend on the processing

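No call of a member turned its direction in any alternative of the comparisons of lines or of day 14 with day 0. Against WT#1-4 the 7 calls became 12 with both WT lines together, 4 without day 7 and 11 without Nox4-/- #5-8, of which 2 were higher (Itga6 and Fermt1). The range was 4 to 11 over all fits that left out a day, a line or a library. Over all 33860 genes, the 1903 calls of the main fit became 4101, 1099 and 1964 in the 3 alternatives named. Between the Nox4-/- lines the 4 calls became 8 with a quasi-likelihood test and day as covariate and 1 to 5 with a day or library left out, the lowest without day 5 or day 7. Calls over all genes went from 740 to 1876 with that quasi-likelihood test. For lines summed over days, 0 calls became 4 with DESeq2, where 730 of 20229 genes were called. With a line left out, 1 sum was left in a genotype, so those counts are not given. With no replicate block, the line left out of the fit, 12 calls over the days became 4 and 16 calls of day 14 became 6. Over all 19263 genes, 3058 became 944 and 5093 became 2380. With a line or library left out the counts of members were 4 to 14, lowest without Nox4-/- #5-23 and 6 without #5-8, and 10 to 17, lowest without Nox4-/- #5-23. Calls over all genes were 579 and 2454 of 20354 without #5-23, and 967 and 3289 of 20308 without #5-8. Without WT#20D-17, where 14 and 17 members passed, they were 3898 and 5778 of 18689. In the interaction 0 calls became 1 with a linear trend (Itgb3), where 72 of 19263 genes passed. Without the day 14 library of Nox4-/- #5-8 they stayed 0, and 0 of 20541 genes passed. With a line left out, 1 line was left in a genotype, so those counts of the interaction are not given. The 5 members without overlap became 6 to 15 with a line left out, 15 without WT#1-4. The share of all genes was not counted with a line left out, so these counts are not read as particular to the members. The causes were not tested. Against WT#20D-17 and between the WT lines the counts stayed within 1.5 times of 22 and 15. The fits without the day 14 library of Nox4-/- #5-8, and those on overlap, were chosen after seeing the data. Calls of single members were kept in 99 of 110 alternatives against WT#1-4, 304 of 328 against WT#20D-17 and 130 of 160 over the days. These tallies, and the alternatives counted for single members above, include the looser FDR of 0.05 on the main fit. No call could be lost there, so that part of each tally was fixed in advance. Depth limits Itga11, Itgb6, Itgb8, Fermt1, Itga2, Itga8, Itgb2 and Cav1, which had 0 to 2 counts in some libraries.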
